A study of Drosophila melanogaster with 30 samples.

Results

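The posterior midgut was compared with the anterior midgut in adult female Drosophila of the strain TI{TI}Hr96[1], called Hr96[1] below. The comparison used the 6 libraries that the labels assign to that strain, 3 from the posterior midgut (subregions p1 to p4) and 3 from the anterior midgut (subregions a1 to a3), of 30 libraries in all. The other 24 come from the strain Hr96[2x] and from wild-type y[1]w[1] flies, whose diets were control, lipid-depleted and high in cholesterol, and each of the 10 groups of strain, diet and region holds 3 libraries. All Hr96[1] flies ate the control diet, and wild type and Hr96[2x] on that diet are used here for comparison only. The flies were females 10 to 12 days old, kept with males at 25 °C, and every library was made from poly(A) RNA of 30 to 50 dissected regions pooled. The sources used here do not give how the Hr96[1] and Hr96[2x] strains were made. Differences due to Hr96 and to strain background therefore cannot be told apart in any comparison between strains. No label ties replicates to separate cultures or batches of flies, so the spread between libraries behind each p-value may be technical. That spread is pooled over all 30 libraries in 10 groups, so it is not that of the Hr96[1] libraries alone.

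Hr96 encodes a nuclear receptor that binds cholesterol and is known in the fly for its part in dietary sterol and triglyceride metabolism and in the response to toxic compounds. The midgut is a tube of enterocytes, which digest and absorb, with scattered enteroendocrine cells, which release peptide hormones, and stem cells, which renew both. Its anterior and posterior regions are known to secrete different enzymes and to express different transcription factors along their length.

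Levels are FPKM as deposited, divided by a median-of-ratios factor for each library and called scaled FPKM. A difference is the mean of log2(scaled FPKM + 1) in the posterior libraries minus that in the anterior ones, so it understates changes of weakly expressed genes. A gene was called when limma gave an adjusted p (Benjamini-Hochberg over 8335 genes tested) under 0.05, and "rose", "fell", "higher" or "lower" without further words means called in the posterior against the anterior midgut. Where a p is given for an alternative setting, square brackets after it hold the range of adjusted p over all the alternatives run for that gene. The 3 against 3 libraries allow no exact permutation p below 0.1. In pooled tissue, fewer cells of a type and less RNA per cell cannot be told apart.

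Hr96 itself (FBgn0015240, 3R, 25025235 to 25029351, dm6) had scaled FPKM of 42.1, 40.3 and 33.9 in the anterior and 38.1, 33.4 and 27.9 in the posterior libraries of Hr96[1], each in the order of replicates 1 to 3. The region groups overlap, and the difference was not called (log2 −0.22, adjusted p = 0.653). The transcript was thus present in all 6 libraries, at means of 38.7 and 33.1 against 57.5 and 62 in wild type and 75.3 and 72.5 in Hr96[2x], anterior and posterior in that order.

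Replicate 1 of each region stood apart from replicates 2 and 3. The 48 genes that were at least log2 4 higher in the posterior midgut of wild type, at a mean of at least 100, stood in Hr96[1] anterior replicate 1 at a median of 5.74% of their Hr96[1] posterior level, against 0.846% and 0.865% in anterior replicates 2 and 3. The 40 genes chosen the same way as anterior in wild type stood at 2.57% of their anterior level in posterior replicate 1, against 0.542% and 0.672% in posterior replicates 2 and 3. The summed ovary and germline markers were 82.1 in anterior replicate 1 and 53.7 in posterior replicate 1, and 0.28 to 8.21 in the other 4 libraries. Fat body and Malpighian tubule sums were also highest in replicate 1 of each region. Wild type shared part of this. Its fat body sums were 1615 and 1896 in anterior and posterior replicate 1, against 105 to 205 in replicates 2 and 3. The wild-type ovary and germline sums were 9.70 and 8.46 in replicate 1, against 0.926 to 1.71. In Hr96[2x] replicate 1 was the highest for neither set in either region. Visceral muscle sums were 844 to 1019 in the anterior and 1311 to 1674 in the posterior libraries, while hindgut, hemocyte and neuron sums did not exceed 6.58, and the hindgut marker fd59A was listed at 0 in all 6. Absolute depth is unknown, because FPKM hold no counts. Upper confidence bounds deposited with the FPKM of genes with few fragments gave relative depths. These were 0.871 to 1.01 for the 6 libraries and 0.802 to 1.32 for the other 24. A gene readable in only 1 library is its own reference there, which draws these values together. They therefore do not show that depths were alike. The depth of posterior replicate 3 rested on 172 genes, against 530 to 929 for the other Hr96[1] libraries.

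**Figure D1:**
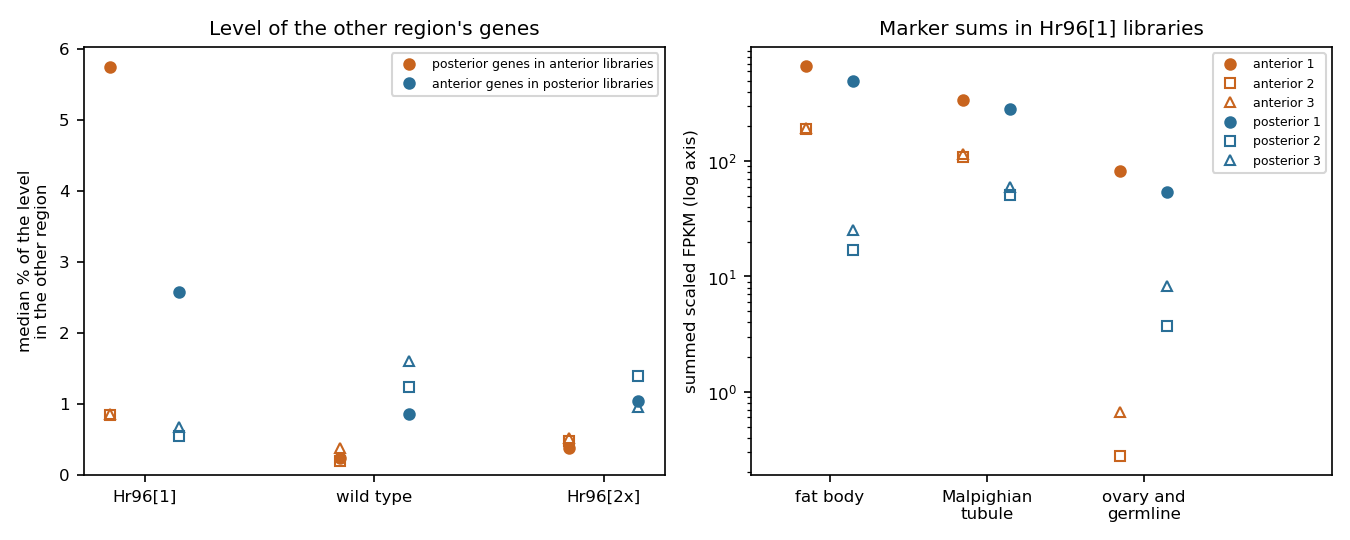
The left panel plots, for each library on the control diet, the median level of genes of the other region (48 posterior and 40 anterior genes chosen in wild type) as a percentage of their level in their own region of the same strain. The right panel plots the summed scaled FPKM of fat body, Malpighian tubule and ovary markers on a log axis in the 6 Hr96[1] libraries, and replicate 1 (filled circles) is the highest in each set.

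Of the 8335 genes 1168 differed between the regions in Hr96[1], which is 14% of the genes tested. Of these 496 (5.95%) were higher and 672 (8.06%) lower in the posterior midgut, and 710 differed by at least log2 1. The libraries of both regions did not overlap in 1068 of the called genes and in 23.6% of all genes. Without replicate 1 of either region 1388 genes were called (614 higher and 774 lower), 1058 of them among the 1168. On FPKM as deposited, where the median of all genes was log2 0.62 in place of 0.00, 4589 were called, 4273 higher and 316 lower. With the replicate number as a block, for which the data give limited grounds, 2281 were called (1031 higher and 1250 lower). In a fit of the Hr96[1] libraries alone, whose spread is not pooled with that of other groups, 561 were called. Root mean square deviations from the group mean, in log2, were 0.66 and 0.62 in anterior and posterior replicate 1 of Hr96[1]. They were 0.40 to 0.54 in its other libraries and 0.33 to 0.49 in wild type and Hr96[2x] on the control diet.

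Serine protease genes were among the largest rises and among the largest falls. The largest rise was in CG17571 (FBgn0259998, 2L, 20255988 to 20257192), which RefSeq lists under a serine protease name, SP83. It stood at 78.8, 1.52 and 0.49 in the anterior and 1807, 3857 and 7129.9 in the posterior libraries (log2 9.10, SE 0.90, adjusted p = 1.17e-07). Posterior levels lay above every anterior level, and anterior replicate 1 was far above the other anterior libraries. CG11911 (FBgn0031249, 2L, 320279 to 321248), also under a serine protease name, stood at 137, 9.57 and 8.5 and at 3257, 5585 and 8327 (log2 7.79, adjusted p = 1.41e-07). It lies on the strand opposite to Plc21C, and the library kit does not mark strand. Ser8, CG8299, CG31266, CG17475, CG11912 and CG31265 also bear serine protease names and rose by log2 6.76 to 7.18.

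Other large rises were outside the genes with serine protease names. The acyl-CoA-binding protein gene CG8628, now Acbp3 (FBgn0250836, 3L, 7130874 to 7131505), stood at 292, 13.8 and 10.2 in the anterior and 4737, 7024 and 12266 in the posterior libraries (log2 7.67, SE 1.00, adjusted p = 6.29e-06), so that anterior replicate 1 was again the highest of its group while the regions did not overlap. CG15533, given as an acid sphingomyelinase gene by its RefSeq name aSMase, rose from 3.2 ± 4.39 to 366 ± 157 (SD, n = 3; log2 6.86). CG10827, now the alkaline phosphatase gene Alp5, rose by log2 6.83, and CG12057, CG3106 and CG15254 by log2 8.17, 6.82 and 6.78. Of these, CG15254 belongs to the carboxypeptidase and astacin list. The transfer RNA gene tRNA:SeC was listed at 0 in all 3 anterior libraries and stood at 241, 805 and 494 in posterior ones (adjusted p = 0.000882). It ends next to iotaTry (11356720 to 11357537) at 2R, 11357564 to 11357650, and transfer RNAs are not what poly(A) libraries are made to capture.

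The largest falls included Jonah proteases, a family of abundant midgut serine endopeptidases. Jon25Bi (FBgn0020906, 2L, 4954279 to 4955144) stood at 13787, 20696 and 23738 in the anterior and 435, 5.89 and 7.71 in the posterior libraries (log2 −9.32, SE 1.17, adjusted p = 3.91e-06). The regions did not overlap, and posterior replicate 1 lay far above the other posterior libraries. Jon74E fell by 9.04 and Jon25Bii by 8.77 on the same scale. Among genes without a failed estimate, Jon25Bii had the highest mean level in the anterior libraries. The lipase-list gene CG6295 (FBgn0039471, 3R, 27005899 to 27007055) stood at 2786, 3568 and 3875 in the anterior and 22.5, 1.13 and 0.892 in the posterior libraries (log2 −9.53, adjusted p = 9.68e-10). CG15199, CG5107, CG14125, CG34026, CG14645 and Diedel3, a gene of the small secreted Diedel family, fell by 7.92 to 9.09. The small nucleolar RNA gene snoRNA:U14:30Eb lies inside Uhg2, was listed at 0 in the posterior libraries and stood at 2710.2, 1728 and 895 in anterior ones (adjusted p = 0.0113, and 0.0568 [0.000796 to 0.0568] without replicate 1 of either region).

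A further 4 of the largest falls, CG45080, CG1678 (now whe), CG34212 and CG16826, were in genes with high anterior means in both Hr96 strains (696 to 2919 in Hr96[1]) and wild-type means of 14.6 or less in both regions. CG45080 stood at 4168, 2228 and 2359.9 in the anterior and 12.1, 0.517 and 0.712 in posterior Hr96[1] libraries, with wild-type means of 14.6 and 12.2 and Hr96[2x] means of 3918 and 12.8. CG1678 stood at 2096, 671 and 731 in anterior Hr96[1] libraries, against wild-type means of 0.997 and 0.847. The tests of the difference from wild type gave adjusted p = 0.0932 for CG34212 to 0.241 for CG45080, so these 4 were not called as differing between strains. The calls of CG45080 and CG1678 within Hr96[1] were lost with replicates 2 and 3 averaged (adjusted p = 0.0869 [0.00175 to 0.0869] and 0.065 [0.000934 to 0.065]).

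**Figure D2:**
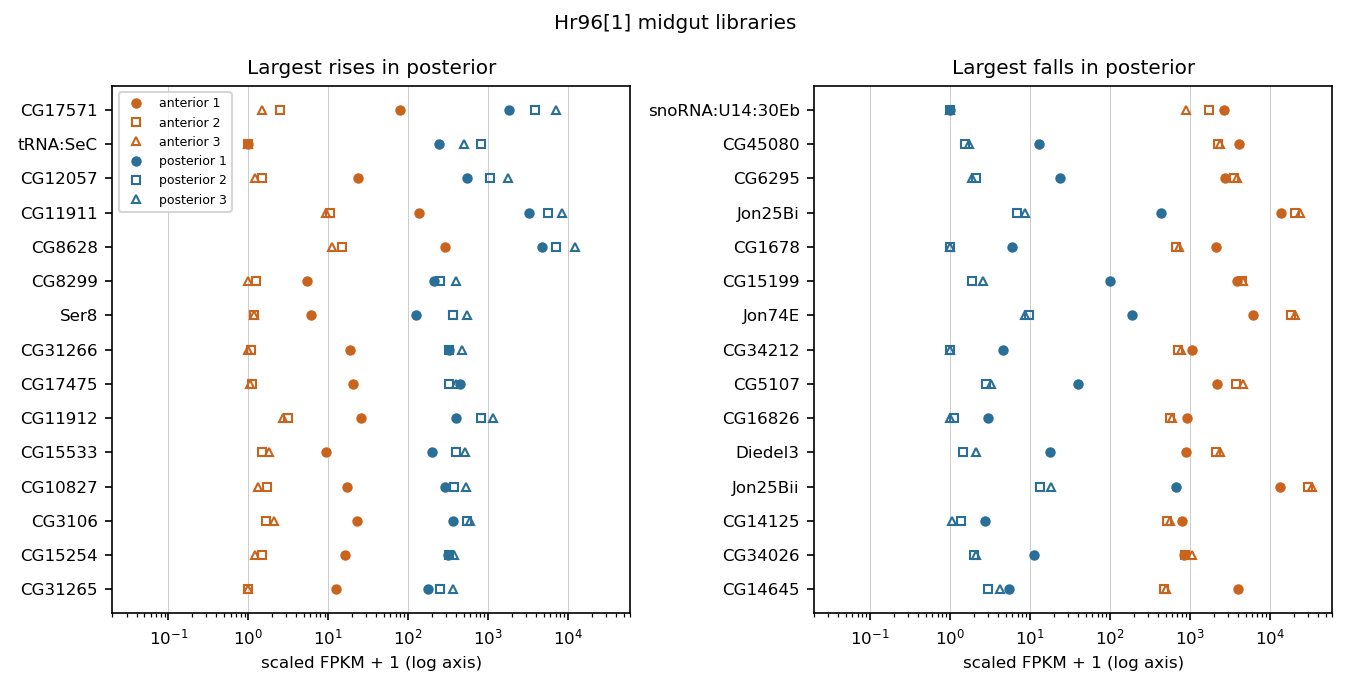
Scaled FPKM plus 1 (log axis) of the 15 largest rises and the 15 largest falls among called genes without overlap, in the 3 anterior (orange) and 3 posterior (blue) Hr96[1] libraries, with replicate 1 as filled circles. The replicate 1 library of the low region often lies above the other libraries of that region, as for CG17571 at 78.8 against 1.52 and 0.49.

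Some of the most abundant enzymes could not be tested, because their values in anterior replicates 2 and 3 are marked as failed estimates. Jon65Aiv stood at 78098 in anterior replicate 1 and at 6019.5, 1737 and 3267 in the posterior libraries. The trypsin gene alphaTry stood at 46067 and 3102, 974 and 1622, the protease gene yip7 at 48072 and 6431, 2924 and 4801, and the aspartic protease gene Bace at 27063 and 988, 273 and 400.1, in the same order. In each of these the anterior library with an estimate was above all 3 posterior ones, and no test was made. In all, 31 genes had a failed estimate in at least 1 Hr96[1] library, and 8 of the 30 genes in the trypsin and Jonah list were left out for a failed estimate somewhere in the series.

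Among the 21 trypsin and Jonah genes tested, 9 rose, 5 fell and the median difference was log2 1.21, beside 0.00 over all genes. The called share was 66.7%, against 14% of all genes. Members with failed estimates are left out. Among those, alphaTry, betaTry, deltaTry, Jon65Aiii, Jon65Aiv and Jon99Cii stood higher in every anterior library with an estimate than in any posterior one. The member gammaTry was near 0 where it had an estimate. The median and the split between rises and falls therefore hold for tested members only. The trypsin gene zetaTry stood at 8.82, 0.861 and 0.351 in the anterior and 239.8, 267 and 379 in the posterior libraries (log2 6.64, SE 0.50, adjusted p = 2.43e-09). Jon99Fii stood at 37, 0.598 and 0.265 and 701, 203 and 326 (log2 6.41), with replicate 1 the highest in both regions. Its call was lost in a fit of the Hr96[1] libraries alone (adjusted p = 0.0612 [1.5e-09 to 0.0612]). Jonah and trypsin genes are close copies of each other, and reads divided between them make single values uncertain.

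Carboxypeptidase and astacin genes lay on the posterior side where they were called. Of 13 tested 7 rose and none fell (53.8% called, against 14% of all genes), with a median of log2 1.91. Without replicate 1 of either region 4 members were called. The member CG12374 was not tested, because its estimates failed in anterior replicates 2 and 3. It stood at 27201 in anterior replicate 1 and at 1046, 18.3 and 11.3 in the posterior libraries, so the counts cover tested members only. CG15254, CG7025 and CG18585 rose most (log2 6.78, 5.73 and 5.61). CG18585 stood at 12.5, 2.69 and 2.75 in the anterior and 236, 310.1 and 294 in the posterior libraries, without overlap. CG8560 stood at 20.4, 8.41 and 5.94 and 229.6, 37.3 and 51.5, a rise (log2 2.79, adjusted p = 0.0174) lost without posterior replicate 1 or anterior replicate 2 or 3 (adjusted p = 0.0676 to 0.11). The rise of CG8562 was lost without posterior replicate 1 too (adjusted p = 0.0573 [0.000197 to 0.0938]).

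Maltases, which split sugar oligomers, lay on the anterior side where they were called. Of 11 amylase and maltase genes tested none rose (1 with the replicate block) and 5 fell. The called share was 45.5%, against 14% of all genes. The median was log2 −0.61, which was 0.11 on FPKM as deposited. The gene tobi (FBgn0261575, 3R, 25344761 to 25346921), an alpha-glucosidase gene known as a target of insulin-like peptides and of the hormone AKH, stood at 242, 410.4 and 428 in the anterior and 4.26, 0.838 and 0.892 in the posterior libraries (log2 −7.05, SE 0.46, adjusted p = 4.27e-10). Mal-A7, Mal-A6, Mal-A8 and Mal-A1 lie together on 2R between 8449664 and 8473961 and fell by 6.47, 6.21, 5.24 and 4.37. Mal-A1 was the most abundant of these at 3018, 4359 and 4529 in the anterior and 352, 128 and 148 in the posterior libraries. Mal-A2, of the same cluster, stood at 169.6, 197 and 196 and 200.3, 168 and 191 and was not called (log2 −0.01), and Mal-A3 stood at 9.94 ± 3.19 and 57.9 ± 39.9 (SD, n = 3) without a call (log2 2.27, adjusted p = 0.0639). Mal-A3 was called as higher with the replicate block (adjusted p = 0.000865 [0.000865 to 0.305]) and after quantile normalization (adjusted p = 0.0467), so that the list had 1 rise under each. Another cluster held 7 genes higher in the posterior midgut, at 3R between 17126088 and 17135283 (CG17477, CG31269, CG31265, CG17475, CG4053, CG31266 and CG31267, log2 4.20 to 7.08).

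Of 17 digestive lipase genes tested 5 rose and 5 fell (58.8% called, against 14% of all genes). Beside CG6295, CG17192 stood at 17.3, 39 and 40.7 in anterior libraries and at 0.292, 0 and 0.141 in posterior ones (log2 −4.78, adjusted p = 5.4e-05). CG31091 stood at 4.97, 15.6 and 17.9 and 0.231, 0.0862 and 0 (log2 −3.49, adjusted p = 4.03e-05). In the other direction CG2772 stood at 4.93, 2.6 and 2.84 and 122, 96.8 and 132 (log2 4.75, adjusted p = 4.29e-07). In these 3 genes the regions did not overlap. CG6277 stood at 188, 8.47 and 11.3 and 68.4, 20.7 and 33.1, where anterior replicate 1 was the highest of all 6 libraries, and was not called (adjusted p = 0.85).

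Transcription factors known to divide the gut along its length differed between the regions in Hr96[1]. Of 48 genes in that list 22 were tested, 6 rose and 3 fell, with a median of log2 0.18. The called share was 40.9%, against 14% of all genes. The homeobox gene cad (FBgn0000251, 2L, 20770731 to 20783135), the fly Cdx factor that marks posterior gut, stood at 10.9, 0.0257 and 0 in the anterior and 47, 45.1 and 43.6 in the posterior libraries (log2 4.33, SE 0.62, adjusted p = 1.96e-05). The posterior libraries lay close together and above the anterior ones, among which replicate 1 stood out. Its call was lost in a fit of the Hr96[1] libraries alone (adjusted p = 0.0707 [2.03e-09 to 0.0707]).

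The odd-skipped zinc finger family was divided. Its member drm stood at 3.27, 1.48 and 1.72 in the anterior and 31.7, 43 and 24.3 in the posterior libraries (log2 3.43, SE 0.40, adjusted p = 1.42e-06). The member odd went the other way, at 35, 68.2 and 65.1 and 12.6, 10.3 and 8.75 (log2 −2.26, SE 0.37, adjusted p = 0.000113). Neither gene overlapped between regions. The member bowl rose from 3.67 ± 1.6 to 8.27 ± 2.59 (SD, n = 3; log2 1.00, adjusted p = 0.0112), a call lost without anterior replicate 2 or 3 or posterior replicate 1 (adjusted p = 0.0662 to 0.0732), and sob was not called (log2 0.39, adjusted p = 0.431).

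The nuclear receptor gene ERR, a regulator of sugar metabolism, stood at 15, 18.4 and 22.5 in the anterior and 5.03, 6.74 and 4.17 in the posterior libraries (log2 −1.64, adjusted p = 1.12e-05). It was the 1 called member of 10 nuclear receptor genes tested (10%, against 14% of all genes). On the opposite strand it overlaps the RNA genes CR45869, at a mean of 59.1, and CR45870, at 15.8, so its level is uncertain. The homeobox gene dve, which takes part in proventriculus and middle midgut formation, stood at 14.2, 11.6 and 8.73 and 7.09, 3.04 and 2.94 (log2 −1.29, adjusted p = 0.000863, and 0.0959 [3.84e-05 to 0.106] on FPKM as deposited). The regions did not overlap in either gene. The zinc finger factor gene tsh stood at 0.423, 0.221 and 0.239 and 2.3, 2.49 and 1.84 (log2 1.31, adjusted p = 1.28e-05), and the BTB factor gene bab2 rose by log2 1.60. The homeobox gene hth stood at 2.37, 0.128 and 0.103 and 6.01, 2.05 and 1.02 with overlap, a rise (log2 1.12, adjusted p = 0.0492) lost without anterior replicate 2 or 3 or posterior replicate 1 or 2 (adjusted p = 0.0775 to 0.285).

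The factors of the list that were not called included some of the whole midgut. GATAe, a GATA factor of midgut identity, stood at 38.5, 52.3 and 51.4 in the anterior and 42.7, 57.4 and 61.3 in the posterior libraries (log2 0.18, adjusted p = 0.718). The enterocyte factor nub stood at 65.8, 87.3 and 81 and 88.6, 128 and 98.7 without overlap and without a call (log2 0.42, adjusted p = 0.0832), and the homeobox gene exex at 38.4, 48 and 42.2 and 15.1, 26.6 and 28.7, also without overlap or a call (log2 −0.89, adjusted p = 0.0639). With the replicate block nub and exex were called (adjusted p = 0.00219 and 0.000503 [0.000503 to 0.654]), and nub also without posterior replicate 1 (adjusted p = 0.0378 [0.00124 to 0.38]). The differences of Ptx1, srp, exd, esg, fkh, mirr, Hnf4, Sox100B and apt lay between log2 −0.60 and 0.48 without a call, and with the block Hnf4 was called (adjusted p = 0.011 [2e-05 to 0.377]).

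Among 15 genes for regional signals 3 rose and 1 fell (26.7% called, against 14% of all genes). The Wnt ligand gene wntD stood at 0.068, 0.248 and 0.064 in the anterior and 5.58, 6.57 and 10.4 in the posterior libraries (log2 2.88, SE 0.22, adjusted p = 3.89e-09). The Hedgehog ligand gene hh stood at 7.48, 11 and 9 and 22, 27.8 and 29.5 (log2 1.44, adjusted p = 0.00194, and 0.0589 [2.6e-05 to 0.0589] with replicates 2 and 3 averaged). The posterior libraries of both genes were all above the anterior ones. Visceral muscle markers were also higher in posterior libraries (sums of 1311 to 1674 against 844 to 1019, 2 of 12 markers tested called), and their part in the differences of factors and ligands was not tested. Krn, an EGF receptor ligand gene, stood at 28.7, 23.6 and 23 and 17.2, 15.5 and 15.1 and fell (log2 −0.62, adjusted p = 0.00306), which turned to log2 0.08 without a call on FPKM as deposited (adjusted p = 0.744 [0.00134 to 0.744]). The cytokine gene upd2 was the other rise (log2 0.86, adjusted p = 0.0456), and it lost its call without any of 5 libraries, all but anterior replicate 1 (adjusted p = 0.0566 to 0.173).

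Enteroendocrine peptide genes divided the regions, with 3 higher and 3 lower of 9 tested (66.7% called, against 14% of all genes). AstA (FBgn0015591, 3R, 24760530 to 24765071), the allatostatin A gene, stood at 1.83, 0 and 0.246 in the anterior and 51.2, 69.8 and 74.2 in the posterior libraries (log2 5.42, SE 0.44, adjusted p = 6.93e-09). CCHa1, for the peptide CCHamide-1, stood at 2.28, 1.92 and 1.91 and 22.9, 26.8 and 31.1 (log2 3.19, SE 0.31, adjusted p = 8.74e-08). AstC, for allatostatin C, stood at 17, 14.8 and 14.3 and 127, 91.3 and 74.9 (log2 2.56, SE 0.33, adjusted p = 4.96e-06). For these 3 genes every posterior library was above every anterior one, and the 3 anterior libraries were close together for CCHa1 and AstC.

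The peptide genes on the anterior side were CCHa2, the orcokinin gene CG13565 and NPF. CCHa2, for CCHamide-2, stood at 60.7, 81.1 and 78.2 in the anterior and 21, 6.95 and 5.31 in the posterior libraries (log2 −2.83, adjusted p = 0.0134). CG13565 stood at 57.1, 62.1 and 71.3 and 31.9, 6.3 and 11.6 (log2 −2.15, adjusted p = 0.00538), and NPF, for neuropeptide F, at 26.2, 32 and 30.4 and 13.4, 4.32 and 5.48 (log2 −1.94, adjusted p = 0.0102). In all 3 the regions did not overlap, and posterior replicate 1 was the highest of the posterior libraries. Each call was lost without posterior replicate 2 (adjusted p = 0.0595 [6.1e-05 to 0.272], 0.0565 [0.000643 to 0.183] and 0.0689 [0.00374 to 0.0689], in that order), and that of CCHa2 also without anterior replicate 2 or posterior replicate 3 (adjusted p = 0.0513 and 0.0635). Tk, for tachykinin, stood at 79.3, 129.9 and 129 and 63.8, 57.7 and 68.9, all anterior libraries above the posterior ones, and was not called (log2 −0.79, adjusted p = 0.101, 0.0374 without anterior replicate 1 and 0.0164 [0.0164 to 0.862] with the replicate block). Nplp2 (log2 −2.08, adjusted p = 0.158) and ITP (log2 0.58, adjusted p = 0.356) were not called either, and with the block they were (adjusted p = 0.0254 and 0.0357 [0.0279 to 0.798]). Nplp2 was also called without posterior replicate 1 (adjusted p = 0.00379 [0.00379 to 0.657]). Dh31 had failed estimates in anterior replicates 2 and 3 and stood at 1.85 in anterior replicate 1 and 12.6, 17.8 and 18.9 in the posterior libraries.

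More sterol transport genes were higher than lower in the posterior midgut of Hr96[1]. Of 17 genes in the list 16 were tested, 6 rose and 2 fell, with a median of log2 0.51 beside 0.00 over all genes. The called share was 50%, against 14% of all genes. The tested members include HmgZ, a chromatin protein gene of the high mobility group family, so not all are sterol genes. Npc1b (FBgn0261675, X, 20934869 to 20939503), which flies need in enterocytes to absorb dietary sterol, stood at 44, 31.6 and 31.9 in the anterior and 232, 420.1 and 324 in the posterior libraries (log2 3.12, SE 0.45, adjusted p = 2.01e-05). CG8112 (FBgn0037612, 3R, 8712933 to 8715263), named ACAT in RefSeq after the enzyme that esterifies sterol for storage, stood at 17.4, 6.59 and 7.44 and 119, 229 and 283 (log2 4.23, SE 0.40, adjusted p = 5.59e-08). It overlaps Cks85A on the opposite strand, which stood at a mean of 9.41. Posterior libraries of both genes were all above the anterior ones.

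The Npc2 genes encode secreted proteins of the sterol-binding NPC2 family, and they did not move together. Npc2e was by far the most abundant at 4524, 4491 and 4971 in the anterior and 9405, 11856 and 18139 in the posterior libraries (log2 1.44, SE 0.34, adjusted p = 0.00459). Npc2c (FBgn0037783, 3R, 10060252 to 10061136) stood at 0.471, 0 and 0 and 25.4, 78.1 and 126 (log2 5.82, SE 0.92, adjusted p = 6.96e-05). It overlaps the RNA gene CR45205, at a mean of 16.4, on the opposite strand, and its posterior levels spread widely while its anterior ones were near 0. Npc2b stood at 6.94, 6.39 and 5.7 and 23.3, 15.7 and 23.7 (log2 1.56, SE 0.20, adjusted p = 4.17e-06). Npc2f (FBgn0039154, 3R, 24137895 to 24140936) went the other way, at 311, 339.8 and 371 in the anterior and 71.4, 47.5 and 54.8 in the posterior libraries (log2 −2.55, SE 0.65, adjusted p = 0.00778, and 0.127 [0.00209 to 0.127] with replicates 2 and 3 averaged), with a wide gap between regions.

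LpR1, a receptor gene for the lipid-carrying lipophorin particle, also fell, at 47.5, 116 and 97.6 in the anterior and 9.06, 10.9 and 6.18 in the posterior libraries (log2 −3.12, SE 0.49, adjusted p = 7.25e-05). Npc1a, the ubiquitous relative of Npc1b, stood at 12.9, 7.98 and 7.37 and 17.7, 19 and 10.7 with overlap between regions, a small rise (log2 0.69, adjusted p = 0.0358) lost without anterior replicate 2 or 3 or posterior replicate 1 or 2 (adjusted p = 0.116 to 0.19). Npc2d stood at 0, 0.126 and 0.253 in the anterior and 1.72, 8.25 and 10.1 in the posterior libraries and was not called (log2 2.54, adjusted p = 0.0756, 0.0383 without posterior replicate 1 and 0.0429 [0.00272 to 0.471] with the replicate block), although the regions did not overlap. The lipase gene mag (magro), which also splits cholesterol esters, stood at 6.05, 3.03 and 4.21 and 30.8, 6.07 and 10.8 without overlap and without a call (log2 1.39, adjusted p = 0.278). Npc2a, Npc2g, HmgZ, Start1 and LpR2 were not called (log2 −0.73 to 0.34), and with the block LpR2 was (adjusted p = 0.000805 [0.000805 to 0.865]). Without posterior replicate 1 LpR2 and Start1 were called (adjusted p = 0.00443 and 0.0446 [4.1e-05 to 0.762]).

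**Figure D3:**
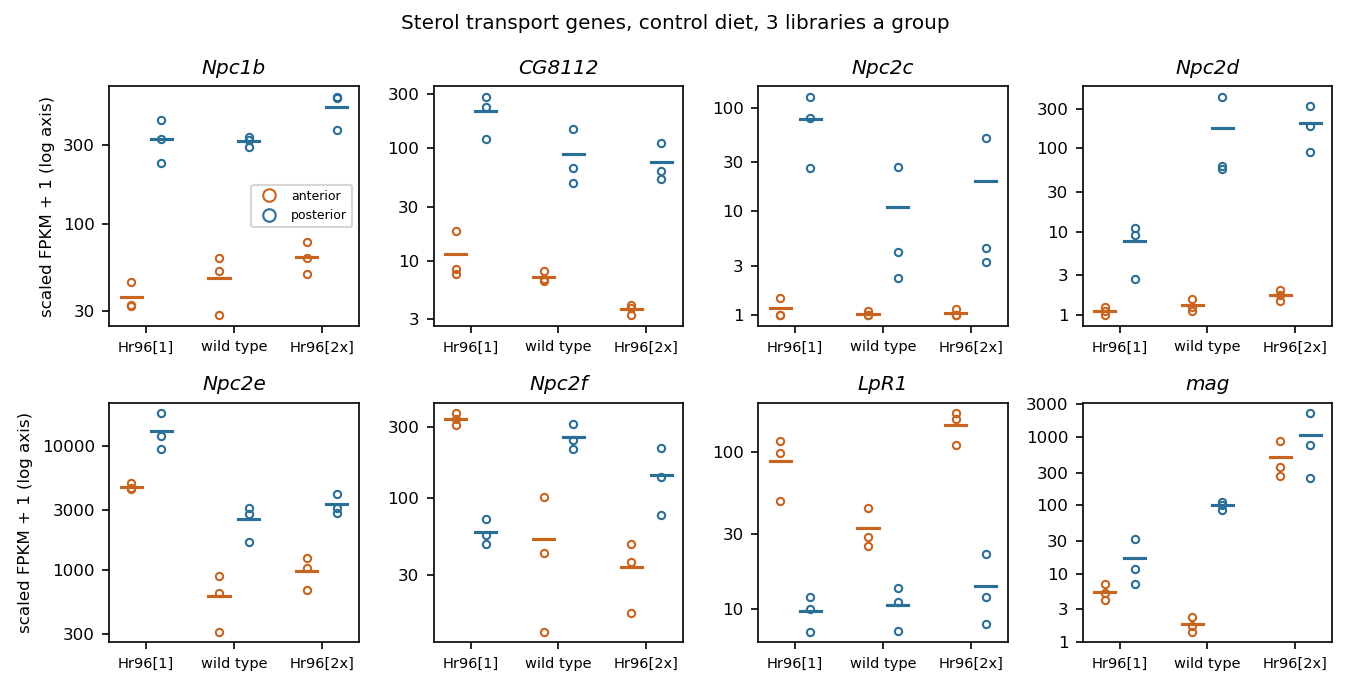
Scaled FPKM plus 1 (log axes) of 8 sterol transport genes in each anterior (orange) and posterior (blue) library on the control diet, with bars at the means of 3 libraries, for Hr96[1], wild type and Hr96[2x]. Npc1b and CG8112 are higher in posterior libraries of all 3 strains, while Npc2f is higher in the anterior libraries of Hr96[1] and in the posterior libraries of the other 2.

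Genes of lipid uptake and storage lay mainly on the posterior side where they were called. Of 7 genes for acyl-CoA and fatty acid binding proteins 3 rose and none fell (42.9% called, against 14% of all genes). CG5804, now Acbp5, had the highest mean level in the posterior libraries among genes without a failed estimate. CG5804 stood at 5917, 4289 and 4477 in the anterior and 16705, 18762 and 31221 in the posterior libraries (log2 2.14, SE 0.39, adjusted p = 0.000415), without overlap. It shares its place with Fhos on the opposite strand. The fatty acid binding gene fabp stood at 1591 ± 259.8 and 2908 ± 1003 (SD, n = 3) without a call (log2 0.83, adjusted p = 0.0971, and 0.00305 [0.000218 to 0.34] with the replicate block). Of 8 scavenger receptor genes of the CD36 family 3 rose and none fell (37.5% called, against 14% of all genes). The carotenoid uptake receptor gene santa-maria stood at 1.89, 3.87 and 3.98 and 16.8, 23.1 and 21.5 (log2 2.37, adjusted p = 3.97e-06). The receptor gene pes rose by log2 1.08 (adjusted p = 0.000331).

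Of 17 genes for triglyceride storage and lipid export 6 rose and 1 fell (41.2% called, against 14% of all genes). Among the enzymes that build glycerolipids, CG3812 (Agpat1) stood at 1.62, 0.126 and 0.198 in the anterior and 31.9, 32.1 and 11.3 in the posterior libraries (log2 3.96, SE 0.44, adjusted p = 5.69e-07). The lipid droplet protein gene Lsd-1 stood at 8.81, 1.71 and 1.74 and 44.5, 42.5 and 51.2 (log2 3.49, SE 0.57, adjusted p = 0.000104), and overlaps CG10214 on the opposite strand. No posterior library of either gene fell within the anterior range. CG3209 (Gpat4) rose by log2 1.15 and the phosphatidate phosphatase gene Lpin by log2 0.95, while CG1946 fell from 101 ± 40.9 to 10.6 ± 0.928 (SD, n = 3; log2 −3.05, adjusted p = 2.27e-05).

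Fatty acid synthesis and oxidation genes were split. Of 16 synthesis genes 2 rose and 4 fell (37.5% called, against 14% of all genes). The desaturase gene Desat1 stood at 226, 329 and 317 in the anterior and 606, 808 and 741 in the posterior libraries (log2 1.31, adjusted p = 0.000434), and the acyl-CoA synthetase gene bgm rose by log2 2.85 (adjusted p = 0.000735). AcCoAS, for acetyl-CoA synthetase, fell (log2 −1.40, adjusted p = 0.0015), as did ATPCL, for ATP citrate lyase (log2 −1.31, adjusted p = 0.00618, and 0.102 [8.97e-05 to 0.162] on FPKM as deposited). Of 20 beta-oxidation genes 2 rose and 4 fell (30% called, against 14% of all genes). The gene whd, for the mitochondrial fatty acid importer carnitine palmitoyltransferase, stood at 222, 276 and 259.6 in the anterior and 46.9, 27.7 and 27.7 in the posterior libraries (log2 −2.89, SE 0.37, adjusted p = 4.92e-06), with a gap between the regions. CG17544 fell by 2.56 as well.

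Among 25 nutrient transporter genes 4 rose and 4 fell (32% called, against 14% of all genes). NAAT1, a sodium-coupled amino acid transporter gene, stood at 16, 2.93 and 2.71 in the anterior and 171, 195 and 205 in the posterior libraries (log2 4.92, SE 0.53, adjusted p = 3.57e-07). CG6484 went the other way, at 1281, 1231 and 1312 and 82.7, 22.8 and 31.8 (log2 −4.98, SE 0.33, adjusted p = 5.23e-10). In both the regions were far apart. CG1213 (log2 −2.10) and SLC5A11 (log2 −2.14), a sodium-solute cotransporter gene, were lower, and CG10960, now nebu, was higher (log2 2.32).

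The peritrophic matrix lines the gut lumen. For its proteins and mucins 2 of 14 genes rose while 4 fell (42.9% called, against 14% of all genes). The matrix protein gene Cry, listed in RefSeq also as dcy, stood at 11, 0.423 and 0.36 in the anterior and 133, 52.3 and 63 in the posterior libraries (log2 4.75, adjusted p = 6.08e-06). The mucin gene Muc68E stood at 40.3, 82.5 and 90.4 and 5.3, 3.82 and 4.26 (log2 −3.65, adjusted p = 2.86e-09). CG10725 stood at 10, 16.9 and 19.1 in anterior libraries and was listed at 0 in all posterior ones (adjusted p = 4.24e-08). All 3 genes were without overlap, with Cry the posterior and the other 2 the anterior ones.

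Immune genes showed no common direction, with 4 higher and 2 lower of 26, which is 23.1% called against 14% of all genes. The amidase gene PGRP-SC1b, whose product degrades bacterial peptidoglycan, stood at 5.14, 4.32 and 8.74 in the anterior and 77.9, 27.1 and 60.2 in the posterior libraries (log2 2.91, adjusted p = 0.000876). Its close copy PGRP-SC1a was listed at 0 in the anterior libraries and stood at 28.5, 1.73 and 2.6 in posterior ones (adjusted p = 0.00814, and 0.0689 [5.91e-05 to 0.184] without posterior replicate 1). The antifungal peptide gene Drs stood at 35.4, 10.6 and 4.33 and 510.2, 44 and 98.6 (log2 3.33, adjusted p = 0.0164), a call lost without anterior replicate 2 or 3 or posterior replicate 1 (adjusted p = 0.0595 to 0.115). Replicate 1 was the highest posterior library in all 3 genes and in the fat body marker sum (492 against 16.8 and 25.1), whose part in these values was not tested. AttC, for an antibacterial attacin, fell by 1.54 (adjusted p = 0.000594).

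Glutathione S-transferase genes, which detoxify electrophiles, lay on the anterior side where they were called. Of 30 tested none rose and 14 fell (46.7% called, against 14% of all genes). The median was log2 −1.13 (−0.51 on FPKM as deposited, where 6 rose and 9 fell). GstE9 stood at 252, 338 and 372 in the anterior and 70.3, 18.6 and 22.5 in the posterior libraries (log2 −3.31, SE 0.50, adjusted p = 4.33e-05), and overlaps imd on the opposite strand. GstD8 stood at 58.7, 53.6 and 61.1 and 6.87, 3.08 and 2.7 (log2 −3.58, SE 0.49, adjusted p = 1.01e-05). For both genes the regions did not overlap, and posterior replicate 1 was the highest posterior library. GstD10 fell by 3.32, GstE8 by 2.64 and GstD7 by 2.61. In wild type, where 7.79% of all genes fell, 11 of the 30 fell and none rose, at a median of log2 −0.76.

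Of 59 cytochrome P450 genes 10 rose and 10 fell (33.9% called, against 14% of all genes). Cyp4ad1 stood at 5.87, 0.259 and 0.649 in the anterior and 114, 176 and 219 in the posterior libraries (log2 6.09, SE 0.52, adjusted p = 1.33e-08). Cyp28d1 stood at 69.2, 75.7 and 85.6 and 8.24, 2.64 and 2.94 (log2 −3.93, SE 0.34, adjusted p = 1.6e-08). The regions did not overlap in either. Cyp4d1 and Cyp4s3 rose by log2 4.53 and 3.26, and Cyp309a1 fell by 2.91. Among the 5 Malpighian tubule markers tested 2 fell, with anterior sums of 109 to 338 and posterior sums of 51.4 to 282, and their part in the detoxification genes was not tested.

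Of 25 metal handling genes 3 rose and 2 fell (20% called, against 14% of all genes). Their median was log2 −0.38, which was 0.35 on FPKM as deposited. The metallothionein gene MtnC stood at 2395, 3694 and 3411 in the anterior and 911, 197 and 355 in the posterior libraries (log2 −2.96, adjusted p = 0.0302), without overlap. Its call was lost without anterior replicate 2 or 3 or posterior replicate 2 or 3 (adjusted p = 0.0757 to 0.15). Of 18 genes of the unfolded protein response and heat shock 1 fell (5.56%, below the share of all genes). This was the transcription factor gene Xbp1, at 421, 382 and 382 and 290.0, 228 and 267 (log2 −0.60, adjusted p = 0.0131). Its regions did not overlap, but the difference turned to log2 0.13 on FPKM as deposited and lost its call without posterior replicate 2 (adjusted p = 0.0857 [0.00849 to 0.55]). The lysozyme-list gene CG16799 rose from 30.1 ± 2.27 to 129.6 ± 48.4 (SD, n = 3; log2 1.99, adjusted p = 4.24e-06).

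Genes of enterocyte junctions and brush border were higher where they were called, 6 of 15 with none lower. The called share was 40%, against 14% of all genes. Ssk, for the smooth septate junction protein snakeskin, stood at 1185, 874 and 922 in the anterior and 1491, 1539 and 2009.7 in the posterior libraries (log2 0.76, adjusted p = 0.0268), a call lost without anterior replicate 2 or 3 or posterior replicate 3 (adjusted p = 0.1 to 0.124). The junction gene cora rose from 31.6 ± 10.8 to 59.8 ± 10.1 (SD, n = 3; log2 0.94, adjusted p = 0.00915), a call lost without anterior replicate 3 or posterior replicate 2 (adjusted p = 0.0618 to 0.079). Of 16 stem cell and enteroblast genes 2 (12.5%, against 14% of all genes) rose, the Notch ligand gene Dl (log2 0.77, adjusted p = 0.0404) and the cell cycle kinase gene Cdk1 (log2 1.06, adjusted p = 0.0274). Both calls were lost without any of 4 libraries (adjusted p = 0.109 to 0.226 for Dl and 0.0658 to 0.191 for Cdk1), which for both included anterior replicates 2 and 3 and posterior replicate 2, with posterior replicate 1 for Dl and posterior replicate 3 for Cdk1. The ovary marker sums of posterior replicates 2 and 3 (3.70 and 8.21) were above those of anterior replicates 2 and 3 (0.28 and 0.673), and their part in the Cdk1 value was not tested. Of 21 Notch pathway genes 3 (14.3%) were called, a share like that of all genes, and 2 rose, Dl and the gamma-secretase gene aph-1, whose call was lost without anterior or posterior replicates 2 or 3 (log2 0.49, adjusted p = 0.0464, and 0.135 to 0.206 without them in turn). The 1 that fell was Kaz-m1, a Kazal-type protease inhibitor gene of the Enhancer of split region (log2 −1.99, adjusted p = 0.000219).

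Of 82 cytosolic ribosomal protein genes 13 (15.9%) fell and none rose, a called share near the 14% of all genes, at a median of log2 −0.62, and the direction turned on FPKM as deposited (median 0.11, 1 rose), while 1 fell after quantile normalization and 77 fell with the replicate block. Of 22 vacuolar ATPase subunit genes 8 fell and none rose (36.4% called, against 14% of all genes). Their median was log2 −0.52, which was 0.20 on FPKM as deposited, where 2 rose and 1 fell. None of 73 mitochondrial ribosomal protein genes, 31 proteasome genes or 8 oxidative phosphorylation genes was called, while on FPKM as deposited 57, 30 and 6 of them rose. In the insulin and TOR list of 19 genes 15.8% were called, also near the share of all genes. Its member foxo fell (log2 −1.11, adjusted p = 0.0019, and 0.186 [0.00102 to 0.186] on FPKM as deposited), as did its known target Thor (log2 −1.45), and the insulin-like peptide gene Ilp3 stood at 2.44, 2.39 and 1.71 in the anterior and 3.17, 14.6 and 26.9 in the posterior libraries (log2 1.95, adjusted p = 0.00997). The call of Ilp3 was lost without posterior replicate 2 or 3 (adjusted p = 0.0539 to 0.085), and that of Thor without any of 4 libraries, anterior replicate 2 or 3 or posterior replicate 1 or 2 (adjusted p = 0.0526 to 0.0739).

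**Figure D4:**
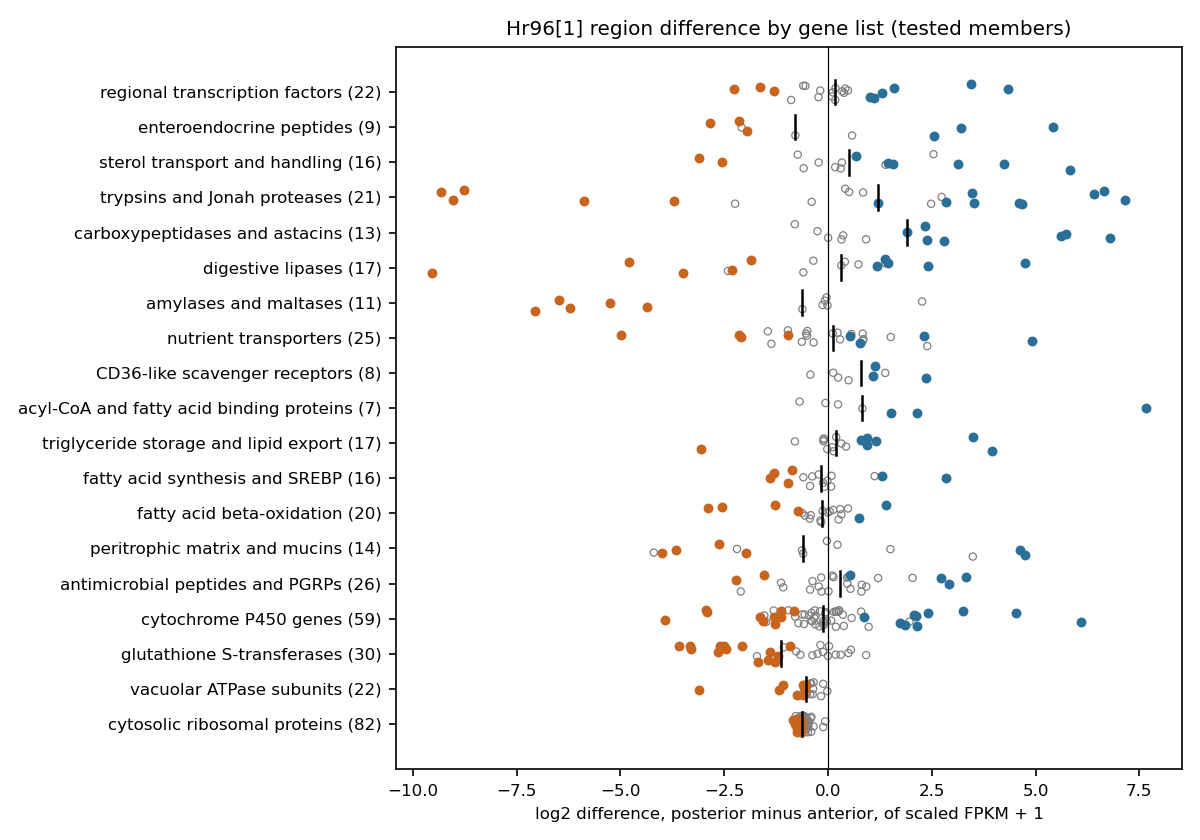
Each point is a tested member of a gene list at its posterior minus anterior difference in log2(scaled FPKM + 1) in Hr96[1], blue where it rose, orange where it fell and open where it was not called, with the number tested in brackets and a bar at the list's median. Trypsins and Jonah proteases spread from −9.32 to 7.15, called carboxypeptidases and astacins lie on the right, and called maltases and glutathione S-transferases on the left, though 6 of the transferases rose on FPKM as deposited.

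The region difference in Hr96[1] was set beside that in wild type on the same diet, which shares none of its libraries. Of the 1168 genes called in Hr96[1], 699 (59.8%) were also among the 1222 called in wild type (14.7% of the genes tested), which is 57.2% of those. All but 3 of the 699 went the same way in both strains. In wild type 6.87% rose and 7.79% fell. In Hr96[2x] 1579 genes (18.9%) were called, 8.37% higher and 10.6% lower, 877 of them shared with Hr96[1], which is 75.1% of the Hr96[1] and 55.5% of the Hr96[2x] genes, and 632 were called in all 3 strains. The test of the difference itself called 34 genes (0.408%) against wild type, 10 (0.12%) with a higher and 24 (0.288%) with a lower posterior minus anterior difference in Hr96[1]. Against Hr96[2x] it called 54 (0.648%), 25 (0.3%) higher and 29 (0.348%) lower. Without replicate 1 of either Hr96[1] region 100 and 61 were called. The count against wild type was 117 without anterior replicate 1, 55 without posterior replicate 1 and 18 and 22 without anterior replicates 2 and 3 of Hr96[1]. The count against Hr96[2x] was 35 without posterior replicate 1 of Hr96[2x] and 142 with the replicate block. Both tests use the same Hr96[1] libraries, so they are not independent. In neither can Hr96 be told apart from the strain background.

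The trypsin gene epsilonTry (FBgn0010425, 2R, 11345237 to 11346066) was near 0 in both regions of Hr96[1] and high in the anterior midgut of the other strains. It stood at 2.68, 1.33 and 1.29 in the anterior and 0, 1.01 and 3.32 in posterior Hr96[1] libraries, against 5226, 7961 and 4889.6 and 2.62, 5.99 and 6.33 in wild type. The Hr96[2x] libraries were at 30360.5, 43073 and 31462 in anterior and 102, 119 and 52 in posterior midgut. The difference between strains was log2 9.62 (SE 0.87, adjusted p = 9.82e-07) against wild type and 8.24 (adjusted p = 1.14e-05) against Hr96[2x]. Another trypsin gene, iotaTry (FBgn0015001, 2R, 11356720 to 11357537), stood at 26.2, 61.1 and 59.4 in the anterior and 248, 330.3 and 459 in posterior Hr96[1] libraries, against 0.713, 0.497 and 0.186 and 469, 264 and 228 in wild type. Its anterior levels in Hr96[1] were all above those of wild type, and the region difference was smaller (log2 −4.88, adjusted p = 0.000209). Both lie in a cluster of close trypsin copies, among which alphaTry and its neighbours had failed estimates in anterior replicates 2 and 3. The protease-named gene CG10472 (SP78) also had a smaller region difference (log2 3.02 against 5.75, adjusted p of the difference = 0.0426), a call that 14 of 22 alternatives ended (adjusted p over all of them 0.0172 to 0.181). Among these were the fits without any Hr96[1] library but anterior replicate 1 and posterior replicate 3, and without any wild-type library but anterior replicate 2.

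The maltase gene tobi had a large region difference in Hr96[1] and none that was called in wild type (log2 −0.05, adjusted p = 0.971). It stood in wild type at 0.584, 0.87 and 0.685 in anterior and 0.527, 0.813 and 0.613 in the posterior libraries, where the regions overlap. In Hr96[2x] it stood at 159, 158 and 861 in anterior and 2.48, 1.34 and 3.86 in the posterior libraries. The difference against wild type was log2 −7.00 (SE 0.65, adjusted p = 9.82e-07), and against Hr96[2x] it was log2 −0.70 (adjusted p = 1). It overlaps rha, at a mean of 0.0639, on the opposite strand.

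Of the 16 genes tested from the sterol list, which includes HmgZ, 9 rose and 1 fell in wild type at a median of log2 1.53. Npc2f was the member whose region difference was called as unequal against both other strains. It was higher in the anterior midgut of Hr96[1] and higher in the posterior midgut of wild type, at 101, 11.5 and 41.4 in anterior and 312, 246 and 213 in the posterior libraries (log2 2.75, adjusted p = 0.00405). Hr96[2x] stood at 15.8, 47.9 and 35.6 and 136, 214 and 75.7. The difference between strains was log2 −5.31 (SE 0.91, adjusted p = 0.00479) against wild type and −4.63 (adjusted p = 0.0111) against Hr96[2x]. Npc2f, CG18507 and CG14933 were the 3 genes called in opposite directions in Hr96[1] and wild type. CG18507 was at log2 0.94 and −0.58 and CG14933 at 0.80 and −0.81, in that order. The Hr96[1] call of CG14933 (adjusted p = 0.0343) was lost without anterior replicate 2 or 3 or posterior replicate 1 (adjusted p = 0.137 to 0.186). These 2 genes were named after their values were seen. For mag the test against wild type was not called (log2 −4.42, adjusted p = 0.0667), with wild type at 1.35, 0.416 and 0.715 in anterior and 101, 111 and 85.5 in the posterior libraries. Npc2d was not called either (log2 −3.91, adjusted p = 0.283), with wild-type means of 0.307 and 177.

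Burs, for the alpha subunit of bursicon, a hormone of cuticle tanning that the midgut also makes, stood well above 0 in Hr96[1] and at or near 0 in the other strains. It stood at 44.2, 35.9 and 50.9 in the anterior and 161, 173 and 314 in posterior Hr96[1] libraries (log2 2.23, SE 0.20, adjusted p = 3.75e-08). It was listed at 0 in all 6 wild-type libraries and had means of 0.158 and 0.248 in Hr96[2x]. The tests of the region difference gave adjusted p = 0.000183 against wild type and 0.000327 against Hr96[2x], and 0.444 [1.16e-06 to 0.444] and 0.657 [1.42e-06 to 0.657] with a pseudocount of 0.1. CG32379 was the reverse, listed at 0 in all 6 Hr96[1] libraries and at 0.109, 0 and 0.262 in anterior and 78.2, 75.6 and 46.1 in posterior wild-type libraries (adjusted p of the difference = 9.03e-06).

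Other departures from wild type were found in genes of several kinds. CG31091 of the lipase list stood at 4.97, 15.6 and 17.9 in anterior Hr96[1] libraries and near 0 in posterior ones, and at 7.36, 13.2 and 9.26 in anterior and 28.3, 42.9 and 12.3 in posterior wild-type libraries (log2 of the difference −4.75, adjusted p = 0.00184). The antifungal peptide relative Drsl2 stood at 541, 472 and 764 in posterior Hr96[1] libraries against 16.6, 15.8 and 35 in wild type, with anterior means of 1232 and 651 (log2 of the difference 3.70, adjusted p = 0.00597). Irp-1B, for an iron regulatory protein related to aconitase, stood at 68.8, 69.5 and 65.9 in anterior Hr96[1] libraries against 214, 277 and 202 in wild type, with posterior means of 53.2 and 54.1 (log2 of the difference 1.73, adjusted p = 0.000807). Summed markers of the copper cell and iron region (6 genes, none at 0 in all Hr96[1] libraries) were 4183 to 5890 in anterior Hr96[1] and 11004 to 20042 in anterior wild-type libraries, and their part in the Irp-1B value was not tested. Most of the Hr96[1] sums came from the ferritin genes Fer1HCH and Fer2LCH, at means of 2290 and 2320 over the Hr96[1] libraries. The sums therefore say little about the other markers of that region. CG13313 stood at 1.21, 2.03 and 2.01 in posterior Hr96[1] libraries against 126, 34.8 and 31.4 in wild type (log2 of the difference −4.35, adjusted p = 0.000602). The posterior libraries of both strains did not overlap for CG31091, Drsl2 and CG13313, nor did the anterior ones for Irp-1B.

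**Figure D5:**
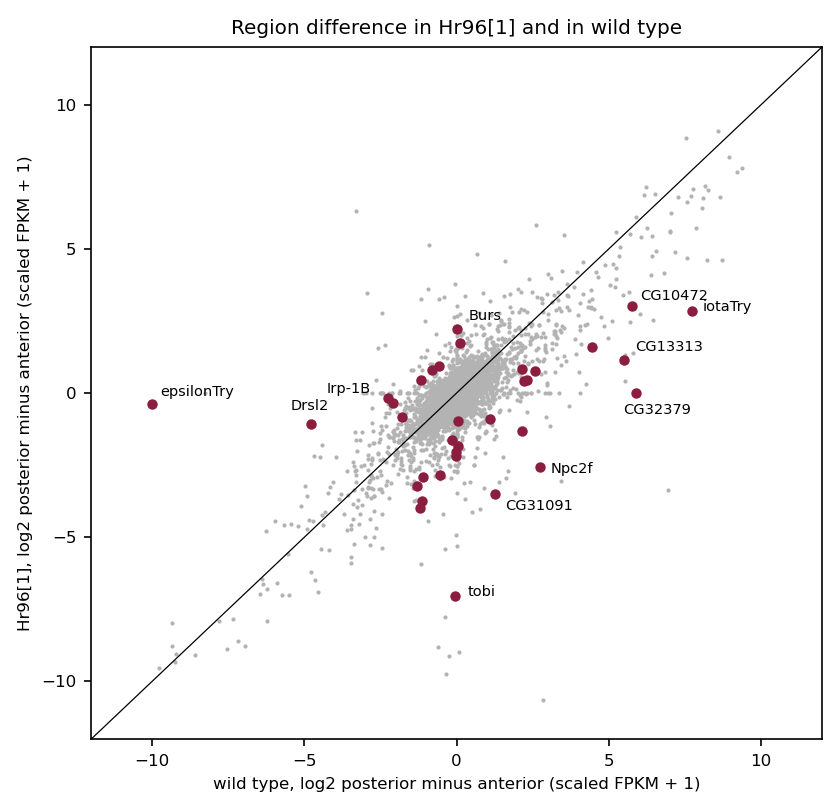
Each of 8335 genes is plotted at its posterior minus anterior difference in log2(scaled FPKM + 1) in wild type (horizontal) and in Hr96[1] (vertical), with the 34 genes whose differences were called as unequal in dark red and the line of equal differences. epsilonTry lies far left near 0 on the vertical axis, tobi lies below 0 near 0 on the horizontal axis, and Npc2f lies at 2.75 and −2.55.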

How the data were processed

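RNA sequencing of poly(A) RNA (TruSeq v2, a kit that does not mark strand) gave 30 libraries. FPKM per gene are the authors' values, as deposited. The submitters' processing notes name bcl2fastq 2.17.1.14, TopHat2 2.1.1, Bowtie2 2.2.9, Cufflinks 2.2.1 and the builds BDGP6 and dm6. FPKM divide fragments by transcript length and by library total, so depth is divided out, and counting error was not computed.

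Of 17488 genes 103 were left out, because their status marks a failed estimate in some library. FPKM were rescaled by median-of-ratios factors over 8584 genes, and 8335 genes with a mean of at least 1 were tested with limma 3.58.1 (R 4.3.3) on log2(scaled FPKM + 1), all 30 libraries in 10 groups, with an intensity trend and Benjamini-Hochberg adjustment, threshold 0.05. The fit was tried on simulated data, drawn independently with 1 spread per gene for all groups. Those data lack the departure of replicate 1 and the same-numbered correlations given below, so the trial does not cover them. Python 3.11.15, pandas 2.3.3 and matplotlib 3.10.9 made the tables and figures. Same-numbered libraries were compared by the correlation of their deviations from group means. In Hr96[1] these were 0.52, 0.30 and 0.36 and in Hr96[2x] 0.27, 0.20 and 0.21. Between different numbers they ran from −0.42 to 0.25 in Hr96[1] and from −0.20 to −0.025 in Hr96[2x]. Replicates 2 and 3 of Hr96[1] also correlated across numbers, at 0.25 and 0.15, against same-numbered values of 0.30 and 0.36. Same-numbered values were thus the highest in both strains, though little above the others for replicates 2 and 3 of Hr96[1]. Deviations of 3 libraries from their mean cancel for each gene, so values of same and different numbers are not independent. With 3 libraries a group they cannot show that the numbers mark a shared source. The labels give no shared day or animal. Genes were named as Hr96, the 15 largest rises and falls without overlap, up to 6 called and 3 abundant uncalled members of each list (all tested sterol, factor and peptide genes), the 10 with the smallest adjusted p and any called list member in each test between strains, and the 8 most abundant per region. The comparison, lists and genes were chosen with earlier results of these data known. Alternatives were other pseudocounts, filters and scalings, fits of the compared groups only, a replicate block and each library left out.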

Additional observations from a re-analysis of the deposited data

Results flagged for a closer look

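In the genes below the test of the difference itself called the region difference, posterior minus anterior on the log2(scaled FPKM + 1) scale, as unequal between Hr96[1] and another strain on the same diet. Values are Hr96[1] minus the other strain, from limma with adjustment over all genes tested.

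Against wild type, the value was 9.62 for epsilonTry, where the region difference was −0.39 in Hr96[1] and −10.01 in wild type. For iotaTry it was −4.88, from 2.85 and 7.72. The maltase gene tobi gave −7.00 (−7.05 against −0.05), Npc2f −5.31 and CG31091 −4.75 (−3.49 against 1.27). CG13313 gave −4.35, Drsl2 3.70 and Irp-1B 1.73. CG18507 gave 1.52, CG14933 1.61 and CG10472 −2.73. The value of rtet was −1.84, at means of 46.5 in anterior and 64.7 in posterior Hr96[1] libraries and 6.56 and 37.3 in wild type.

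In 5 genes a whole group was listed at 0, so the fitted value depends on the pseudocount and is no fold. These were Burs (2.23, listed at 0 in wild type), CG32379 (−5.88, listed at 0 in Hr96[1]), CG10725 (−2.79, posterior Hr96[1] at 0), CR44755 (−1.80, posterior Hr96[1] at 0) and CG13135 (2.08, posterior Hr96[1] at 0). CR44755 stood at 4.95, 7.68 and 7.13 in anterior Hr96[1] libraries and at 1, 1.65 and 1.11 and 0.135, 0 and 0 in anterior and posterior wild-type libraries. CG13135 stood at 0.22, 0 and 0.146 in anterior Hr96[1] libraries and at 3.34, 3.26 and 4.72 and 0, 0 and 0 in wild type. The calls of CG10725, Burs, CR44755, rtet, CG13135, CG14933 and CG10472 were lost under at least 1 alternative, over whose alternatives the adjusted p ran from 0.000201 to 0.296 for CG10725, 0.000381 to 0.0723 for CR44755, 0.00043 to 0.0625 for rtet and 0.000871 to 0.3 for CG13135.

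Against Hr96[2x], epsilonTry gave 8.24, iotaTry −4.13, Npc2f −4.63, CG13313 −4.46, Irp-1B 1.61 and CG18507 1.49. Npc2b gave −1.74, from 1.56 in Hr96[1] and 3.30 in Hr96[2x], and santa-maria −2.28 (2.37 against 4.65). The carboxypeptidase and astacin genes CG18585 and CG15253 gave −3.18 (5.61 against 8.79) and −2.97 (2.39 against 5.37). CG3812, the acyltransferase gene Agpat1, gave 2.64 (3.96 against 1.32), and the transporter-list gene CG1213 gave 1.94 (−2.10 against −4.05). CG7194 gave −3.46 and stood at 27.3 in anterior and 88.5 in posterior libraries of Hr96[1], and 7.01 and 271 in Hr96[2x]. CG31777 gave 3.80, with means of 3.74 and 3.57 in Hr96[1] and 38.9 and 1.62 in Hr96[2x]. CG4615 gave −2.47 and CG34386 −2.01. With a group listed at 0, CR44755 gave −2.05 and CG13135 3.62, and Burs, near 0 in Hr96[2x], gave 2.15. The calls of CG18585, CG15253, CG1213, santa-maria, CG3812, CG18507 and Burs were lost under at least 1 alternative.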

How the results depend on the processing

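The count of genes that differed between the regions in Hr96[1] was 1168 and ran from 803 (without anterior replicate 2) to 1563 (without anterior replicate 1) when 1 Hr96[1] library was left out. It was 4589 on FPKM as deposited, 561 in a fit of the compared groups only, 2281 with a replicate block, which pairs the same-numbered libraries of both regions, and 452 with replicates 2 and 3 of each region averaged. Pseudocounts of 0.1 and 5, other filters on low values, quantile normalization and leaving out replicate 1 of both regions kept it within 1.5 times, between 995 and 1388. Of 155 named genes called in Hr96[1], 95 kept their call under every alternative run. On FPKM as deposited 2 turned, Krn to 0.076 and Xbp1 to 0.13, since that scale lifts the median of all genes by log2 0.62.

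The count of unequal region differences against wild type was 34, and ran from 18 to 117 over single libraries left out. It was 16 with a pseudocount of 0.1, 55 without a filter, 12 with a mean of at least 5, 239 with the replicate block and 100 without replicate 1 of both Hr96[1] regions. Same-numbered wild-type libraries did not all deviate together (correlations 0.31, 0.04 and 0.26), so the data give uneven grounds for that block in wild type. Against Hr96[2x] it was 54, from 35 to 69 over single libraries left out, 109 without a filter, 32 with a mean of at least 5, 26 in the compared groups only and 142 with the block. The causes of these changes were not tested. Alternatives that leave out both replicate 1 libraries or average replicates 2 and 3 were chosen after seeing the data. FPKM hold no counts, and the precision of weakly expressed genes was not computed.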

Other observations

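Among the most abundant transcripts, RpL41, CG10911 and Pebp1 stood in the first 8 of both regions. In anterior Hr96[1] libraries the highest means after Jon25Bii (25789.9) were those of Pebp1, Jon25Bi, CG13323, CG4734, RpL41, CG10911 and Jon74E. In posterior libraries CG5804 (22229.5) was followed by CG10472, Npc2e, RpL41, CG10911, Pebp1, CG31086 and CG8628. Genes with failed estimates are not in this order, and Jon65Aiv at 78098 in anterior replicate 1 was above them all.

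Called genes of like direction lay side by side at several places in dm6. Beside the protease and maltase clusters, 4 neighbouring genes on X between 11139608 and 11143755 (CR44054, ssp7, CG15199 and CG15202) were all higher in the anterior midgut, by 3.18 to 9.09 on the log2 scale. CR44054 and CG15199 overlap on opposite strands, and the kit does not mark strand, so their reads cannot be told apart.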
